A study of Sus scrofa with 50 samples.

Results

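The expression of 10 genes that carry fatty acids or build, coat and empty lipid droplets was followed through early porcine development. The genes were FABP3, FABP5, PLIN2, PLIN3, PNPLA2, DGAT1, DGAT2, CPT1A, SCD and FASN. They were taken by name and NCBI Gene identifier, a choice made with earlier results of these data known, and all 10 were found among the 30321 gene identifiers. Polyadenylated RNA of 50 single embryos was sequenced with Smart-seq2, a method that amplifies full-length cDNA from very little RNA. The in vivo embryos were 5 at the 4-cell stage, 10 morulae and 10 hatched blastocysts, flushed 2, 4 and 6 days after insemination from synchronized German Landrace × Pietrian gilts. The in vitro embryos, with the same numbers per stage, came from abattoir oocytes that were matured and fertilized in the laboratory and cultured in porcine zygote medium at low oxygen. In vitro hatched blastocysts were collected later after fertilization than the in vivo ones were after insemination. The sperm of the same Duroc boar was used for both sources. In vitro 4-cell embryos and morulae were grown from embryos preselected at an earlier cleavage stage. Each group held embryos of several gilts or several experiments, but the gilt or experiment of an embryo is not known here, so the p-values measure the spread between embryos, which may share a mother.

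Oocytes and early embryos of pigs are known for their large store of lipid droplets, which makes them look dark under the microscope. Fatty acid binding proteins carry fatty acids through the cytosol, acyltransferases join them to glycerol, and the droplets that result are coated by perilipins. Lipases release the fatty acids again, and carnitine palmitoyltransferase admits them to the mitochondria for beta oxidation. The mRNA levels below do not measure lipid content or protein.

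The embryos had 4.20 ± 1.29 M reads in genes (mean ± SD, n = 49), with a range from 1.44 to 7.71 M. Values are given in CPM, reads scaled by the authors to the effective size of each library and given per M, and 1 read was worth 0.133 to 0.870 CPM. The in vivo 4-cell embryos had 6209 to 13520 genes with a read, against 16059 to 17686 in the in vitro 4-cell embryos. In vivo 4-cell embryo C1 had the fewest of all. Where the values of the in vivo 4-cell embryos are listed below, they run from A1 to E1, with C1 in the middle. The study did not compare 4-cell embryos and morulae between the sources because the RNA quality differed, and these comparisons are given here with that limit. The 8 oocyte markers summed to 2738 to 20651 CPM in the 4-cell embryos and to 1.87 to 22.2 CPM in the hatched blastocysts. The 7 trophectoderm markers, which mark the outer layer of the blastocyst, summed to 4344 CPM or more in every hatched blastocyst and to 26.9 CPM or less in every 4-cell embryo. Of the 5 adipocyte markers, FABP4 and PLIN1 were each at 0 in every embryo of 5 of the 6 groups, and the list summed to 13.4 CPM at most. CIDEC, a droplet protein on that list, was detected. It was at 5.22 ± 3.17 CPM in the in vivo morulae (SD, n = 10) and reached 12.6 CPM in the in vitro morulae.

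Differential expression was tested with limma on log2(CPM + 1), and a DEG had a Benjamini-Hochberg adjusted p under 0.001 over all genes tested and an absolute log2 fold change over 1. At the first step, 4-cell embryo to morula, 4 of the 10 genes rose in vivo (SCD, PLIN2, FABP3 and FABP5), where 22.8% of 19834 genes tested were DEGs. In vitro, 5 of 10 rose (the same genes and CPT1A), where 38.7% of 21780 genes were DEGs. The median log2 fold change of the 10 genes was 2.51 in vivo and 2.03 in vitro, beside 0.21 and -0.14 over all genes tested. At the second step, morula to hatched blastocyst, 3 of 10 rose in vivo (SCD, DGAT1 and FASN), where 8.95% of 18399 genes were DEGs. In vitro, 3 rose (SCD, DGAT1 and FABP3) and 2 fell (CPT1A and FABP5), where 20.2% of 20716 genes were DEGs. The medians of the 10 genes were 0.90 and 0.91, beside 0.01 and -0.11 over all genes. The genes were few and shared a theme, so these counts describe them and were not tested as a set. As each library was a whole embryo, a change in the share of cells that express a gene and a change in its RNA per cell cannot be told apart.

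FABP3, the heart-type fatty acid binding protein, lies on chromosome 6 (87943003 to 87950708, Sscrofa11.1). In the in vivo 4-cell embryos it was at 91.3, 62.1, 12.0, 55.6 and 75.6 CPM, with C1 the lowest. In the in vitro 4-cell embryos it was at 114, 60.0, 84.3, 79.9 and 90.3 CPM, so the sources overlapped. In vivo morulae ranged from 940 to 5235 CPM (median 2695), and in vitro morulae from 280 to 1826 CPM (median 1047). Every morula lay above every 4-cell embryo of both sources. The rise was 5.71 ± 0.48 on the log2 scale in vivo (SE; adjusted p = 1.08e-08, limma) and 3.46 ± 0.35 in vitro (adjusted p = 2.26e-08). Hatched blastocysts held 3035 to 9671 CPM in vivo (median 5095.5) and 2565 to 5074 CPM in vitro (median 4271). In vitro, every hatched blastocyst was above every morula, and the log2 fold change was 2.02 ± 0.27 (adjusted p = 7.56e-07, limma). In vivo the groups overlapped, and the difference of 0.95 ± 0.30 missed the threshold (adjusted p = 0.0176, limma). FABP3 thus reached its highest mean at the last stage in both sources, 5419.5 ± 1965 CPM in vivo and 3880 ± 935 CPM in vitro (SD, n = 10 each).

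FABP5, the epidermal-type member of the family, lies on chromosome 4 (55277831 to 55282585). It peaked at the morula. In vivo, 4-cell embryos A1, B1, C1 and E1 were at 0 and D1 was at 1.90 CPM, that is 10 reads, where 3 reads were worth 0.441 to 0.668 CPM. In vitro, the 4-cell embryos were at 5.43, 2.64, 1.21, 3.36 and 3.29 CPM. Morulae ranged from 10.4 to 161 CPM in vivo (median 35.2) and from 109 to 684 CPM in vitro (median 201). Only in vivo morula A3, at 161 CPM, reached into the in vitro range, and in vitro morula B2 was the highest of all. The rise from the 4-cell stage was 5.11 ± 0.53 on the log2 scale in vivo (adjusted p = 1.92e-07, limma) and 5.73 ± 0.36 in vitro (adjusted p = 3.32e-11). Hatched blastocysts were down to 4.43 to 41.8 CPM in vivo (median 15.8) and 0.824 to 28.1 CPM in vitro (median 9.83). In vitro, no hatched blastocyst reached the lowest morula, and the log2 fold change of FABP5 was -4.63 ± 0.43 (adjusted p = 1.83e-09, limma). In vivo the groups overlapped and the log2 fold change was -1.40 ± 0.38, not a DEG (adjusted p = 0.00728, limma). Without in vivo morula G1, the lowest of its group at 10.4 CPM, it was -1.61 (adjusted p = 0.000814) and passed. How the study counted reads shared with near-identical copies of a gene is not given in the sources used here, and FABP5 is known to have such copies in human.

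**Figure D1:**
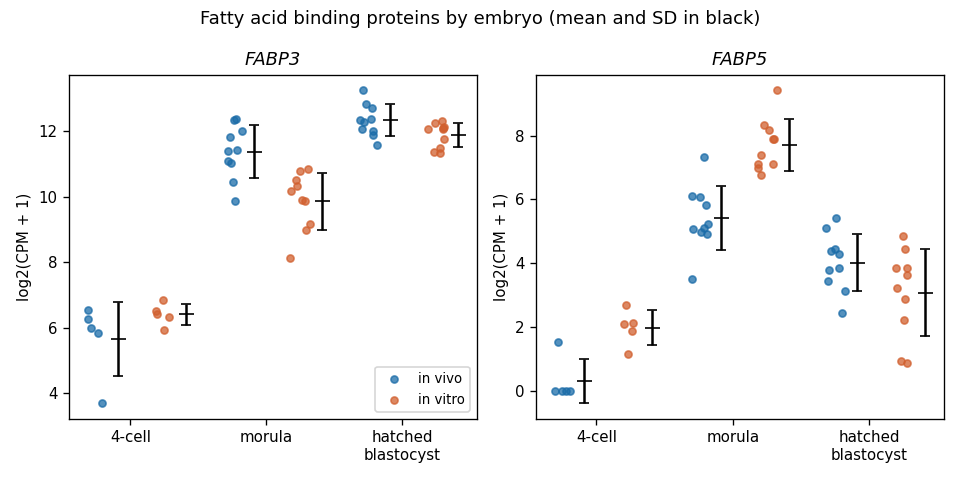
Level of FABP3 and FABP5 in each of the 50 embryos, as log2(CPM + 1) on the vertical axis, by stage, with in vivo embryos in blue, in vitro embryos in orange and the mean with its SD in black. FABP3 was highest in the hatched blastocysts of both sources, while FABP5 peaked in the morulae at medians of 35.2 CPM in vivo and 201 CPM in vitro.

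The balance of the carriers within an embryo followed from this. FABP3 made up 89.7 to 99.3% of the summed FABP3 and FABP5 CPM in the in vivo morulae (median 98.7%). In the in vitro morulae it made up 45.4 to 93.3% (median 83.2%), and morulae A3 and B2 held more FABP5 CPM than FABP3 CPM. In the hatched blastocysts the share was 99.0 to 99.9% in vivo and at least 99.2% in vitro. The share is not corrected for transcript length, which is the same in every group.

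PLIN2 codes for the perilipin that coats lipid droplets in most cell types, and lies on chromosome 1 (203683867 to 203709277). In the in vivo 4-cell embryos it was at 153, 102, 0, 108 and 69.9 CPM, with the 0 in C1. The in vitro 4-cell embryos were at 153, 48.8, 40.7, 24.0 and 47.2 CPM, so that 4 of the 5 lay below every in vivo 4-cell embryo other than C1. Morulae ranged from 552 to 4822 CPM in vivo (median 2181) and from 1044 to 2772 CPM in vitro (median 1673), all above every 4-cell embryo. PLIN2 rose by 5.66 ± 0.88 on the log2 scale in vivo (adjusted p = 2.82e-05, limma) and by 4.93 ± 0.33 in vitro (adjusted p = 5.72e-11). Without C1 the rise in vivo was 4.31 (adjusted p = 3.76e-07). Hatched blastocysts held 2536 to 6746 CPM in vivo (median 4594) and 1639 to 3375 CPM in vitro (median 2746). Neither step to the hatched blastocyst was a DEG, with 1.11 ± 0.32 in vivo (adjusted p = 0.0110, limma) and 0.77 ± 0.19 in vitro (adjusted p = 0.00140), and in each source the groups overlapped.

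PLIN3, a perilipin that moves between cytosol and nascent droplets, lies on chromosome 2 (73970149 to 73995314). It stayed at a few CPM. Its group means ran from 1.26 ± 1.93 CPM in the in vivo 4-cell embryos (SD, n = 5) to 7.07 ± 3.23 CPM in the in vitro hatched blastocysts (n = 10), and it was at 0 in 3 in vivo 4-cell embryos. It was a DEG in no comparison. The largest of its stage differences was 1.14 ± 0.36 on the log2 scale, from morula to hatched blastocyst in vitro (adjusted p = 0.0118, limma).

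SCD codes for stearoyl-CoA desaturase, which makes monounsaturated fatty acids, and lies on chromosome 14 (111461560 to 111478033). It was the only one of the 10 genes that was a DEG at every step in both sources. The in vivo 4-cell embryos were at 1.30, 20.3, 0.223, 12.7 and 19.1 CPM, and the in vitro 4-cell embryos at 42.4, 17.1, 5.09, 10.5 and 8.37 CPM. Morulae ranged from 87.1 to 442 CPM in vivo (median 309) and from 85.6 to 331 CPM in vitro (median 201). Hatched blastocysts ranged from 489 to 822 CPM in vivo (median 658) and from 513 to 1015 CPM in vitro (median 671). The 3 stages did not overlap in either source. On the log2 scale the first step was 5.37 ± 0.60 in vivo (adjusted p = 5.22e-07, limma) and 3.72 ± 0.40 in vitro (adjusted p = 5.46e-08). The lowest in vivo value, 0.223 CPM, was that of C1. The first step in vivo passed in all 13 refits, the one without C1 among them, from 4.74 to 5.93. The second step was 1.23 ± 0.22 in vivo (adjusted p = 0.000102) and 1.93 ± 0.23 in vitro (adjusted p = 1.23e-07). With 1 fit of all 6 groups the second step in vivo missed the threshold (adjusted p = 0.0107).

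FASN codes for fatty acid synthase, which builds palmitate from malonyl-CoA, and lies on chromosome 12 (922405 to 937560). It was near the limit of detection until the last stage. All 5 in vitro 4-cell embryos and 4 of 5 in vivo 4-cell embryos were at 0, where 3 reads were worth up to 0.897 CPM. Morulae reached 1.57 CPM in vivo and 1.92 CPM in vitro at most, with 3 and 5 embryos at 0. Hatched blastocysts held 1.20 to 6.84 CPM in vivo (median 3.71) and 0 to 4.36 CPM in vitro (median 1.83). The step to the hatched blastocyst was 1.59 ± 0.28 on the log2 scale in vivo (adjusted p = 0.000106, limma), and 1.07 ± 0.27 in vitro, which missed the threshold (adjusted p = 0.00202). The morulae had 9 reads of FASN at most, and the hatched blastocysts up to 31. By edgeR on the recovered reads it was 2.81 in vivo and just missed the threshold (adjusted p = 0.00101). Without in vitro hatched blastocyst D3, which had under 2 M reads, or without in vitro morula H1, the step in vitro was 1.23 or 1.19 and passed (adjusted p = 0.000203 and 0.000488).

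DGAT1 and DGAT2 code for the enzymes of the last step of triglyceride synthesis, and lie on chromosomes 4 (452890 to 463665) and 9 (10032163 to 10066082). DGAT1 was at 4.39, 2.52, 0, 5.70 and 6.92 CPM in the in vivo 4-cell embryos. It was at 13.3, 8.57, 13.1, 13.9 and 14.4 CPM in the in vitro 4-cell embryos, each above every in vivo 4-cell embryo. Morulae ranged from 5.66 to 19.2 CPM in vivo (median 13.1) and from 7.37 to 15.9 CPM in vitro (median 11.4). Hatched blastocysts ranged from 22.4 to 42.7 CPM in vivo (median 29.7) and from 13.6 to 38.4 CPM in vitro (median 24.8). In vivo all hatched blastocysts were above all morulae, whereas the in vitro groups overlapped. DGAT1 rose by 1.32 ± 0.22 on the log2 scale in vivo (adjusted p = 6.53e-05, limma) and by 1.05 ± 0.19 in vitro (adjusted p = 6.29e-05). With the values rescaled to 1 M per embryo the rises were 1.16 (adjusted p = 0.00121) and 0.65 (adjusted p = 0.0100) and neither passed, where the median over all genes moved by -0.07 in vivo and -0.12 in vitro. Without in vitro hatched blastocyst A4 or G4, or in vitro morula G1, the rise in vitro was 0.97 to 0.99 and under the fold limit.

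DGAT2 was detected at 11 reads at most. It was at 0 in all 5 in vivo 4-cell embryos and in 7 of 10 hatched blastocysts of each source, so no fold against those 4-cell embryos is given. Its highest group mean was 0.896 ± 0.922 CPM (SD, n = 10), in the in vitro morulae, where 9 of 10 embryos had a read and the highest was at 2.87 CPM. The difference from these to the in vitro hatched blastocysts was -0.67 ± 0.20 on the log2 scale, not a DEG (adjusted p = 0.00766, limma).

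CPT1A codes for the liver-type carnitine palmitoyltransferase, the gate of fatty acids into mitochondria, and lies on chromosome 2 (4250642 to 4293914). Like FABP5 it had its highest mean and median in the morulae of both sources, although in vivo the stages overlapped. The in vivo 4-cell embryos were at 0, 0.101, 129, 1.90 and 0 CPM, with the 129 CPM, or 578 reads, in C1. The in vitro 4-cell embryos were at 3.33, 3.74, 3.87, 0 and 0 CPM. Morulae ranged from 13.6 to 195 CPM in vivo (median 29.0), with G1 the highest and A3 next at 56.4 CPM, and from 66.4 to 207 CPM in vitro (median 105). The rise was 5.45 ± 0.40 on the log2 scale in vitro (adjusted p = 2.80e-10, limma). In vivo it was 3.39 ± 0.91 and missed the threshold (adjusted p = 0.00476), and without C1 it was 4.71 and passed (adjusted p = 1.36e-06). Hatched blastocysts held 13.0 to 45.1 CPM in vivo (median 20.0) and 14.8 to 54.9 CPM in vitro (median 35.3). In vitro, all were below the lowest morula, and the log2 fold change of CPT1A was -1.67 ± 0.23 (adjusted p = 1.27e-06, limma). With 1 fit of all 6 groups this fall missed the threshold (adjusted p = 0.00705). In vivo the groups overlapped, and the log2 fold change was -0.73 ± 0.34 (adjusted p = 0.115).

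PNPLA2 codes for adipose triglyceride lipase, which cuts the first fatty acid from a stored triglyceride, and lies on chromosome 2 (513065 to 517962). Its highest means were in the 4-cell embryos. They were at 0.651, 2.32, 0, 0.570 and 4.41 CPM in vivo and at 0.526, 7.47, 2.42, 3.57 and 2.99 CPM in vitro. Group means were 0.312 to 0.697 CPM in the later groups, and each later group held 2 or 3 embryos at 0. The step to the morula in vitro was -1.27 ± 0.35 on the log2 scale and missed the threshold (adjusted p = 0.00351, limma). Without in vitro 4-cell embryo A1, the lowest of its group, it was -1.60 and passed (adjusted p = 0.000379). With 1 fit of all 6 groups the step was -1.27 and passed as well (adjusted p = 0.000686).

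**Figure D2:**
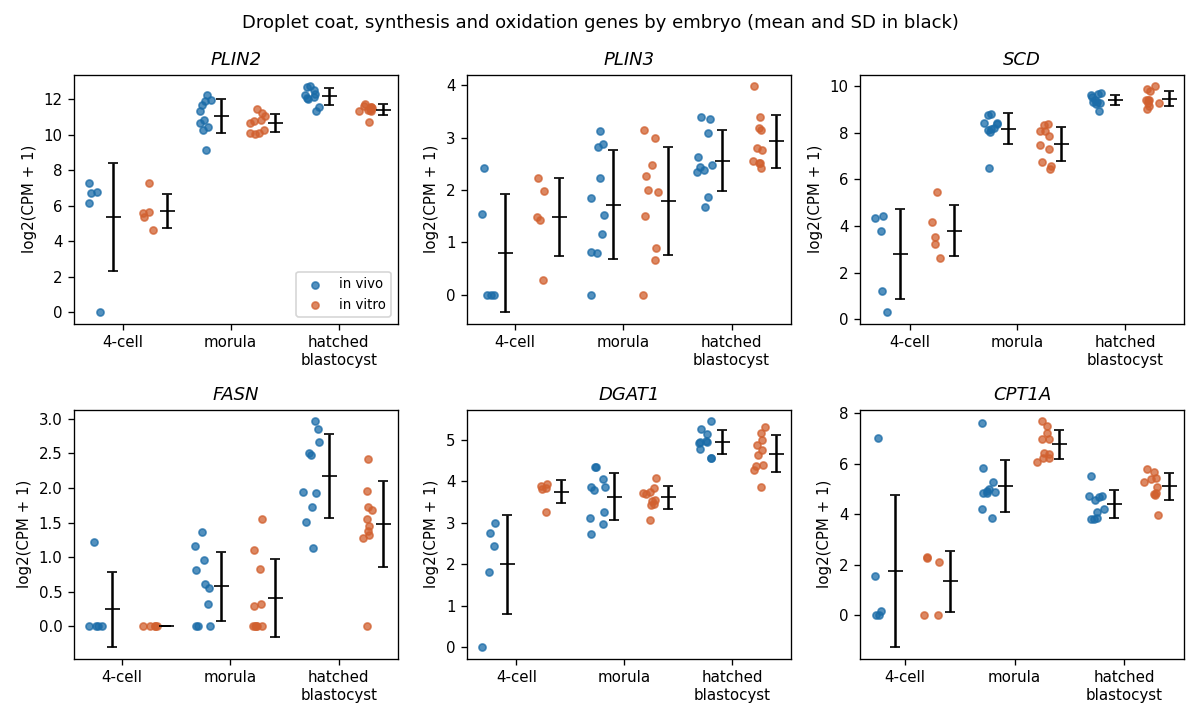
Level of PLIN2, PLIN3, SCD, FASN, DGAT1 and CPT1A in each embryo, as log2(CPM + 1) on the vertical axis of its own range, by stage, with in vivo embryos in blue, in vitro embryos in orange and the mean with its SD in black. SCD separated the 3 stages in both sources. CPT1A had its highest mean in the morulae of both sources, although in vivo the stages overlapped. The in vivo 4-cell embryo C1 stood apart with PLIN2 at 0 and CPT1A at 129 CPM.

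**Figure D3:**
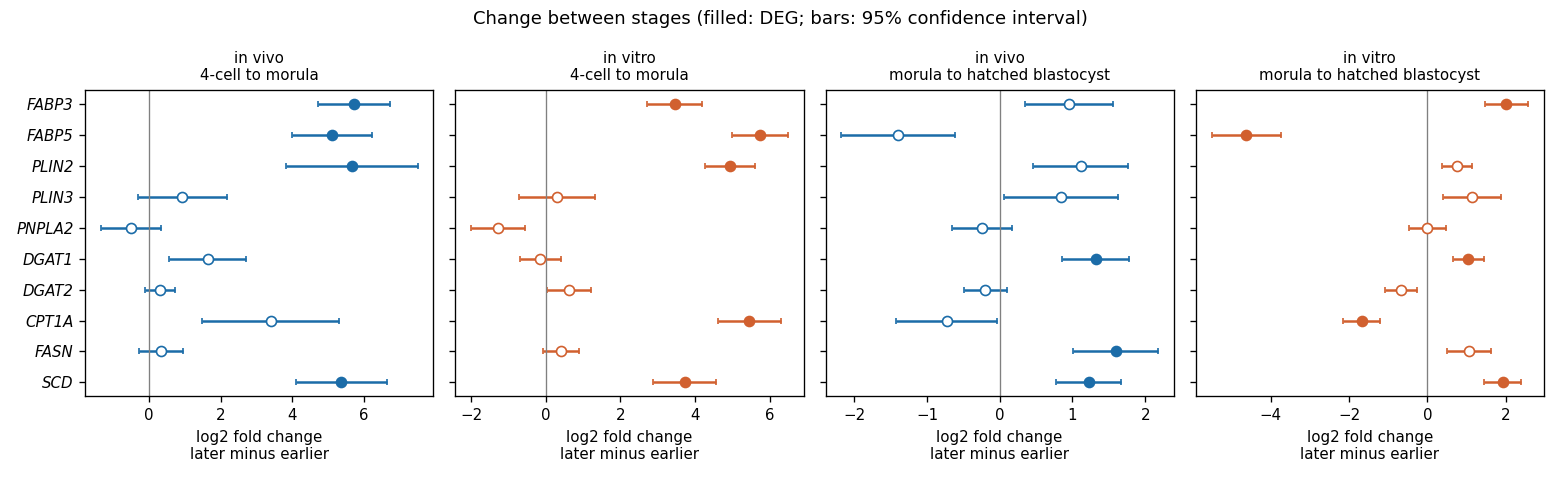
Log2 fold change (horizontal axis, later minus earlier stage) of the 10 genes at the 4 stage steps, with the 95% confidence interval as bars and DEGs filled. FABP3, FABP5, PLIN2 and SCD were DEGs in the first step of both sources, and FABP5 had the lowest value of the second step in vitro, at -4.63.

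Differences between the sources were examined at each stage. Among the hatched blastocysts, the stage the study compared, 0 of the 10 genes was a DEG by limma, and 0 by edgeR and by DESeq2 on recovered reads, where 4.27% of 17990 genes were DEGs by limma. At an unadjusted p under 0.05, limma gave 5 of the 10 genes, and 6030 of the 17990. PLIN2 had the smallest p, with 4709 ± 1382 CPM in vivo and 2749.7 ± 472 CPM in vitro (SD, n = 10 each). Its log2 fold change was -0.74 ± 0.19, with a 95% confidence interval from -1.12 to -0.35 (adjusted p = 0.00481, limma), and 9 of the 10 in vitro embryos lay within the in vivo range while 2 of the 10 in vivo embryos lay within the in vitro range. Over the 28 refits PLIN2 ran from -0.83 to -0.37. The adjusted p was under 0.001 in 1 or more of them, where only the fold limit was missed. CPT1A was at 0.71 ± 0.22 in the other direction (adjusted p = 0.0216). The interval for SCD, from -0.23 to 0.33, was the narrowest among the genes over 10 CPM. FABP3 differed by -0.45 (interval -0.87 to -0.02) and FABP5 by -0.94 (interval -1.85 to -0.04), with adjusted p of 0.130 and 0.132. The 5 hypoblast markers, of the inner layer that lines the blastocyst, summed to 1282 to 5067 CPM in vivo (median 3340) and to 194 to 2265 CPM in vitro (median 433). The in vitro hatched blastocysts were also older when collected. The part of the hypoblast markers and of age in these values was not tested.

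Among the morulae, FABP5 alone of the 10 was a DEG, where 2.47% of 20570 genes were DEGs. It was at 244 ± 171 CPM in vitro and 52.4 ± 42.1 CPM in vivo (SD, n = 10 each), and the log2 fold change was 2.29 ± 0.36 (adjusted p = 0.000105, limma). Without in vitro morula B2 it was 2.10 (adjusted p = 0.000143), and without in vivo morulae A3 and G1 it was 2.29 (adjusted p = 5.44e-06). CPT1A was higher in vitro by 1.65 ± 0.34 and FABP3 lower, at -1.51 ± 0.34 on the log2 scale, and neither was a DEG (adjusted p = 0.00142 and 0.00285). Without in vivo morulae A3 and G1, left out after their values were seen, CPT1A was at 2.05 (adjusted p = 2.63e-06) and FABP3 at -1.81 (adjusted p = 0.000200). These 2 embryos had the highest CPT1A and the lowest FABP3 of their group, so that leaving them out had to widen both differences. The values for SCD (-0.65 ± 0.29), PLIN2 (-0.39 ± 0.32) and DGAT1 (-0.02 ± 0.26) did not pass (adjusted p = 0.115, 0.420 and 0.967).

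Other genes separated the morulae of the sources as well. The trophectoderm markers summed to 846 to 4360 CPM in the in vivo morulae and to 16.6 to 467 CPM in the in vitro morulae, and the oocyte markers to 6.90 to 34.8 CPM and 57.7 to 2042 CPM. Neither sum overlapped between the sources. The part of these differences, of RNA quality and of developmental age in the result for FABP5 was not tested.

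Among the 4-cell embryos, 0 of the 10 genes was a DEG by limma, edgeR or DESeq2, and 2 had an unadjusted p under 0.05 by limma, FABP5 and DGAT1. Of all 19927 genes 0% were DEGs by limma and edgeR, against 271 genes by DESeq2, with 5820 genes at an unadjusted p under 0.05 by limma. The median over all genes was 0.66 higher in vitro on the log2 scale, where fewer genes had a read in the in vivo embryos, and the part of that in these values was not tested. Relative to that median, the values of FABP5 (1.68 ± 0.51) and DGAT1 (1.76 ± 0.73) were 1.02 and 1.09 higher. Their adjusted p were 0.0609 and 0.133 (limma).

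Whether a stage step differed between the sources was tested as an interaction. For the step from morula to hatched blastocyst, FABP5 was a DEG of the interaction, at -3.23 ± 0.61 on the log2 scale (adjusted p = 0.000165, limma), where 4.49% of 21442 genes passed. The step of FABP5 was -4.63 in vitro and -1.40 in vivo. Its interaction was also past the threshold in each of the 9 other settings run, from -3.48 to -2.96. The source difference of FABP5 was 2.29 among the morulae and -0.94 among the hatched blastocysts. The study did not compare the morulae between the sources because RNA quality differed. Each setting used morulae of both sources, so these refits cannot address that limit, and its part in the interaction was not tested. For the step from the 4-cell stage to the morula, 0 of the 10 genes passed, where 3.17% of 22588 genes passed. Over all genes, 84 of the DEGs were positive and 633 negative, and the median was -0.395. The limit of RNA quality applies to both stages of this step, and its part was not tested. At an unadjusted p under 0.05 there were 3 of the 10 genes, and 7322 of the 22588. FABP3 had the smallest p there, at -2.26 ± 0.62 (adjusted p = 0.00999), with the smaller rise in vitro. By edgeR 0 passed. By DESeq2 CPT1A passed at 5.98 (adjusted p = 0.000360), against 2.06 ± 1.04 by limma, with in vivo 4-cell embryo C1, at 129 CPM, in both. Without C1 the interaction of CPT1A was 0.74 by limma, the lowest of its 19 refits. Only 1 of the 19, that by DESeq2, passed. These interactions use the same embryos as the stage steps.

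**Figure D4:**
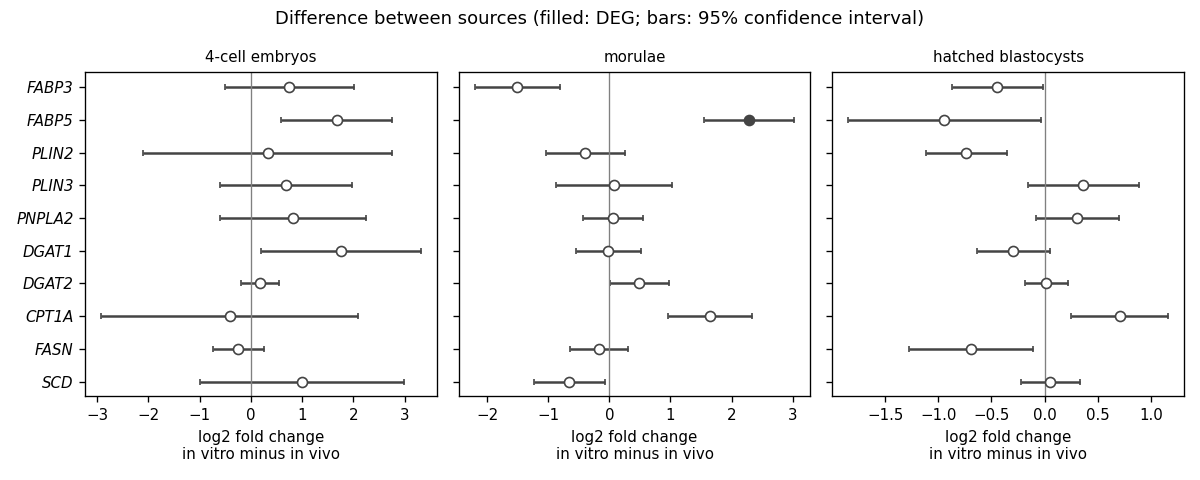
Log2 fold change (horizontal axis, in vitro minus in vivo, on a range of its own in each panel) of the 10 genes at each stage, with the 95% confidence interval as bars and DEGs filled. FABP5 in the morulae, at 2.29, is the only DEG, and the intervals of the 4-cell embryos are the widest for PLIN2 and CPT1A.

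The genes whose pattern over the 50 embryos was most like FABP3 were NDUFA7 and NDUFAF3, a subunit and an assembly factor of respiratory complex I, and MKKS, a chaperonin-like protein. Likeness was the mean absolute difference of centred log2(CPM + 1) among 7418 named genes with a mean of at least 10 CPM. It was 0.451 to 0.481 for these genes, against a median of 1.78 for all. NDUFA7 rose from 5.65 ± 3.76 CPM in the in vivo 4-cell embryos to 432 ± 124 CPM in the in vivo hatched blastocysts (SD), a description without a test. For PLIN2 the nearest were ATP5A1, a subunit of ATP synthase, SAR1A, a GTPase of vesicle budding, and DLD, dihydrolipoamide dehydrogenase, at 0.574 to 0.589 (median 1.75). For FABP5, TNFRSF17 and ELOVL7, a fatty acid elongase, were among the nearest 3, at 1.01 and 1.03 (median 2.02). ELOVL7 stood at 115 ± 62.9 CPM in the in vitro morulae and at 42.5 ± 21.5 CPM in the in vivo morulae (SD).

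The other genes of lipid handling were described in 8 lists, with 131 of 137 genes matched to an identifier. At the first step in vivo, 27 of 117 genes tested rose and 8 fell, with a median log2 fold change of 1.04. In vitro 28 of 121 rose and 27 fell, with a median of -0.08. At the second step, 24 of 119 rose and 6 fell in vivo (median 0.31), and 32 of 121 rose and 14 fell in vitro (median 0.11). The shares of DEGs among all genes tested in these steps, and the medians over all genes, are those given above. Over all genes, 2962 rose and 1559 fell at the first step in vivo, and 3477 rose and 4949 fell in vitro. At the second step 1069 rose and 577 fell in vivo, and 2068 rose and 2113 fell in vitro.

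Among the other binding proteins, FABP1, the liver-type carrier, was also highest in the morulae. It was at 0 in all 5 in vivo 4-cell embryos, at 14.3 ± 11.9 CPM in the in vivo morulae (SD, n = 10) and at 0.354 ± 0.488 CPM in the in vivo hatched blastocysts. It rose at the first step in both sources, by 3.60 ± 0.43 on the log2 scale in vitro (adjusted p = 2.05e-07, limma), and no fold is given against the in vivo embryos at 0. ACBD5, an acyl-CoA binding protein of peroxisomes, fell in vitro (-1.76 ± 0.33). From morula to hatched blastocyst FABP1 fell, with log2 fold changes of -3.15 ± 0.40 in vivo (adjusted p = 9.85e-07, limma) and -3.14 ± 0.34 in vitro (adjusted p = 2.47e-08). FABP4, the adipocyte carrier, had reads in 1 group only, the in vitro hatched blastocysts, with 0.275 CPM at most. DBI, the acyl-CoA binding protein, rose from morula to hatched blastocyst by 2.21 ± 0.29 in vivo and by 3.30 ± 0.17 in vitro (adjusted p = 2.32e-06 and 5.60e-14).

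Of the uptake and activation genes, 3 of 13 fell in vivo and 5 of 15 in vitro between the 4-cell stage and the morula, and 1 rose in each. CD36, a fatty acid translocase, went from 309 ± 238 CPM to 0.821 ± 0.996 CPM in vivo and from 346 ± 32.1 CPM to 14.8 ± 12.9 CPM in vitro (log2 fold changes -7.14 and -4.86, adjusted p = 5.72e-09 and 1.13e-08, limma). ACSL6, an acyl-CoA synthetase, was the gene that rose. It was at 0 in all in vivo 4-cell embryos and reached 352 ± 179 CPM in the in vivo morulae. At the second step ACSS2, an acetyl-CoA synthetase, rose the most in vivo (2.04 ± 0.30) and SLC27A4, a fatty acid transport protein, in vitro (2.31 ± 0.32). ACSL3, another acyl-CoA synthetase, fell at that step in vitro (-4.10 ± 0.32) and was lower in vitro than in vivo among the hatched blastocysts, at -1.55 ± 0.28 on the log2 scale (adjusted p = 0.000194).

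Of the droplet coat and assembly genes, 3 of 12 rose in vivo and 3 of 11 in vitro at the first step, and 1 fell in vitro. LDAH led the rise in vivo, a droplet-bound hydrolase that was at 0 in the in vivo 4-cell embryos and at 42.8 ± 19.0 CPM in the in vivo morulae. CIDEB, a droplet protein of the CIDE family, rose the most to the hatched blastocyst in vivo (2.44 ± 0.37). HILPDA, an inhibitor of adipose triglyceride lipase, was the gene that fell at the first step in vitro (-1.41 ± 0.29, adjusted p = 0.000229, limma). In vivo it also went down at that step, from 100 ± 68.7 CPM to 26.2 ± 14.3 CPM (SD), but was not a DEG. To the hatched blastocyst HILPDA fell in both sources, with log2 fold changes of -1.94 ± 0.26 in vivo and -3.09 ± 0.24 in vitro (adjusted p = 2.58e-06 and 6.22e-11, limma). It was higher in the in vitro than the in vivo morulae by 1.57 ± 0.27 (adjusted p = 0.000222). In the glyceride list, 3 of 14 genes rose in each source at the first step, and SOAT1, which esterifies cholesterol, rose the most, by 7.81 ± 0.86 and 4.91 ± 0.29, while LPIN2 fell in vitro (-2.10 ± 0.27). At the second step AGPAT3, an acyltransferase, rose the most in vivo (1.88 ± 0.27) and GPAM in vitro (2.45 ± 0.20), while GPAT2 fell in vitro (-1.39 ± 0.21). GPAM, the mitochondrial enzyme of the first acylation of glycerol phosphate, was lower in the in vitro morulae, at -1.72 ± 0.25 (adjusted p = 4.33e-05). LPIN1, a phosphatidate phosphatase, was higher in the in vitro hatched blastocysts, at 15.8 ± 6.83 CPM against 1.01 ± 0.850 CPM in vivo (log2 fold change 3.04 ± 0.30, adjusted p = 2.39e-08).

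Of the lipolysis genes other than PNPLA2, ABHD5, the coactivator of adipose triglyceride lipase, rose at the first step by 6.10 ± 0.43 on the log2 scale in vivo and by 3.10 ± 0.38 in vitro (adjusted p = 9.99e-10 and 2.87e-07, limma). Its partner PNPLA2 did not pass in either. In this list 2 of 10 genes fell in vivo and 5 of 10 in vitro, PNPLA4 the most in vivo (-4.23 ± 0.54) and DDHD2 the most in vitro (-5.20 ± 0.47). ABHD6, a monoacylglycerol lipase, rose to the hatched blastocyst by 3.66 ± 0.39 and 2.88 ± 0.40, while DDHD1 fell in vitro (-1.02 ± 0.18).

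Of the synthesis and desaturation genes, 4 of 20 rose and 3 fell at the first step in vivo, and 5 of 21 rose and 7 fell in vitro. ACACA, which makes malonyl-CoA for FASN, fell the most in vivo, at -5.83 ± 0.52 on the log2 scale (adjusted p = 2.36e-08, limma), from 148 ± 94.6 CPM to 1.39 ± 1.05 CPM, and ELOVL4 fell the most in vitro (-4.58 ± 0.50). TECR, an enzyme of fatty acid elongation, rose the most in vivo (6.67 ± 0.55) and ELOVL7 in vitro (5.27 ± 0.51). At the step to the hatched blastocyst 6 of 21 rose in vivo and 9 of 21 in vitro. ELOVL2, an elongase of polyunsaturated fatty acids, fell in vivo (adjusted p = 7.22e-06, limma), as ELOVL7 did in vitro (-4.10 ± 0.37), and FADS3 rose the most in vitro (3.11 ± 0.32). FADS1, a desaturase of polyunsaturated fatty acids, rose by 3.15 ± 0.42 in vivo, and was lower in vitro than in vivo in the hatched blastocysts, at -1.54 ± 0.26 (adjusted p = 7.47e-05).

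Beta oxidation was the list with the most DEGs that rose. At the first step 10 of 24 genes rose in each source, and 0 fell in vivo and 1 in vitro (HADHA, -1.50 ± 0.25). The list's median was 2.32 in vivo and 0.97 in vitro. ACADL, a long-chain acyl-CoA dehydrogenase, rose the most in vivo, by 5.96 ± 0.42 on the log2 scale (adjusted p = 1.02e-09, limma), and ETFB, which takes up the electrons, the most in vitro, by 5.08 ± 0.42 (adjusted p = 1.33e-09). At the second step 6 rose and 2 fell in vivo and 11 rose and 1 fell in vitro, led by ECI1, an enoyl-CoA isomerase, at 2.50 ± 0.28 and 3.58 ± 0.22. ACADL fell at this step in vivo (-1.49 ± 0.27) and ACADM, the medium-chain dehydrogenase, in vitro (-2.28 ± 0.34). CPT1A was lower after this step in vitro while ECI1 was higher.

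Of the regulators, 3 of 17 rose in vivo and 3 of 18 in vitro at the first step, and 4 fell in vitro. PPARGC1B led the rise, a coactivator of mitochondrial genes, which was at 0 in all in vivo 4-cell embryos and at 45.5 ± 15.9 CPM in the in vivo morulae, and rose by 4.25 ± 0.45 on the log2 scale in vitro. PPARD, a nuclear receptor for fatty acids, fell the most in vitro (-2.99 ± 0.31). PRKAA2, a catalytic subunit of AMP-activated kinase, fell the most to the hatched blastocyst in vivo (-2.98 ± 0.35). SREBF1, a transcription factor of fatty acid synthesis genes, rose to the hatched blastocyst, from 0.269 ± 0.420 to 6.68 ± 2.52 CPM in vivo and from 0.164 ± 0.273 to 3.19 ± 1.78 CPM in vitro (adjusted p = 4.16e-08 and 1.07e-06, limma). PPARG, the regulator of adipocyte lipid storage, fell at that step in vitro, at -3.07 ± 0.48 (adjusted p = 7.70e-06).

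Between the sources, 4 of 117 of these genes were higher and 7 lower in the in vitro hatched blastocysts (median -0.02, beside -0.01 over all genes), where 4.27% of all genes were DEGs. The hypoblast markers and the age of these embryos differed as given above. Besides LPIN1, the genes highest in their lists were ME1, malic enzyme, at 1.84 ± 0.32 on the log2 scale, and ACADVL, the very long-chain dehydrogenase, at 1.08 ± 0.22 (adjusted p = 0.000101 and 0.000668, limma). Besides ACSL3 and FADS1, the lowest in their lists were AUP1, a droplet protein, at -1.31 ± 0.26, and ACAA2, the mitochondrial thiolase, at -1.22 ± 0.21 (adjusted p = 0.000492 and 9.70e-05). In the morulae 3 of 121 were higher and 2 lower in vitro (median 0.00, beside 0.11), where 2.47% of all genes were DEGs. CD36 was the highest there, at 2.88 ± 0.46 (adjusted p = 0.000108). In the 4-cell embryos 0 of 117 were DEGs by limma.

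The interaction of source and step was past the threshold for 5 of 123 of these genes at each step, where 3.17% of all genes passed at the first and 4.49% at the second. At the first step it was positive for SLC27A1, a fatty acid transport protein, at 3.15 ± 0.56 on the log2 scale, and negative for DBI (-2.84 ± 0.53), GPAM (-3.60 ± 0.68), ABHD5 (-3.01 ± 0.57) and PPARGC1A (-2.53 ± 0.39), with adjusted p of 3.61e-05 to 0.000378 (limma). At the second step it was positive for LPIN1 (2.61 ± 0.57) and negative for ACSL3 (-3.57 ± 0.49), ELOVL6 (-2.38 ± 0.47) and HSD17B4 (-1.13 ± 0.21), with adjusted p of 1.02e-06 to 0.000839 for those 4. Over all genes, 84 DEGs of the interaction were positive and 633 negative at the first step (median -0.395). At the second step 384 were positive and 579 negative (median -0.123). In the in vivo 4-cell embryos GPAM was at 0 in 4 of 5 and ABHD5 in 3 of 5. The limit of RNA quality applies to the 4-cell embryos and morulae used here, and its part was not tested.

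**Figure D5:**
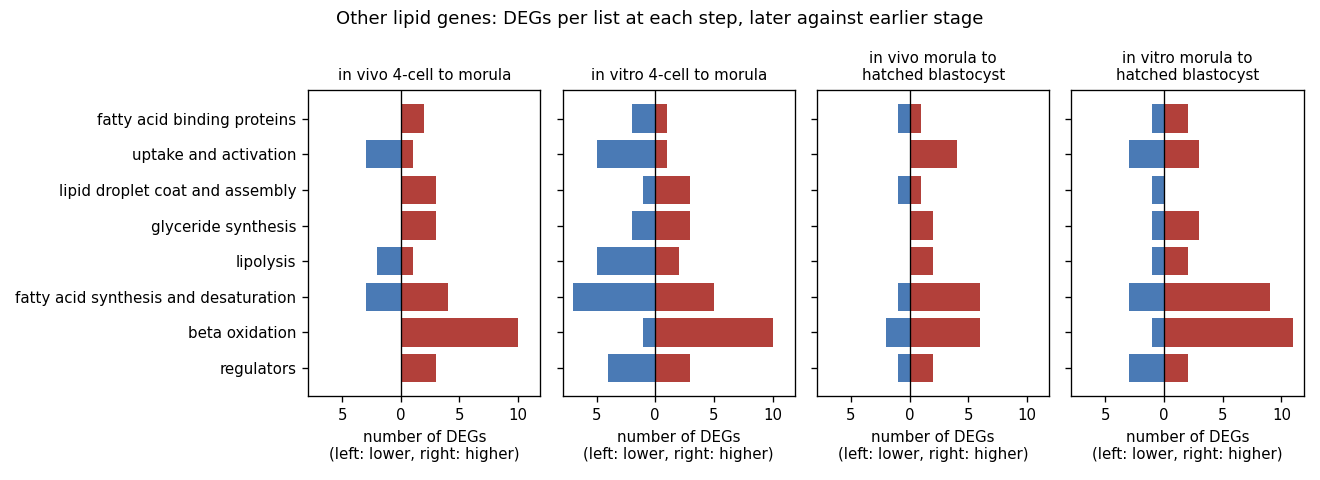
Number of DEGs per list of other lipid genes (horizontal axis) that were higher (right, red) or lower (left, blue) at the later stage, for the 4 stage steps. Beta oxidation, the largest list, had the most DEGs that rose in each panel except the in vivo step to the hatched blastocyst, where synthesis and desaturation also had 6.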

How the data were processed

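The authors used Galaxy with Trim Galore for trimming, HISAT2 for alignment to the pig genome Sus scrofa 11.1, FastQC and MultiQC for quality control and edgeR for testing. The tool versions, the counting tool and the annotation are not given in the sources used here. The signal values deposited by the authors are CPM of the effective library size, which summed to 0.455 to 1.41 M per embryo. The fold changes and p-values in the deposited tables were not used. In 49 embryos 100% of values were whole reads to within 0.1 reads. In vivo 4-cell embryo B1 did not allow this and was left out of count tests. On these reads edgeR called 2920 and 7176 genes at the first step in vivo and in vitro, 1557 and 4264 at the second, and 874, 601 and 0 between the hatched blastocysts, morulae and 4-cell embryos of the sources.

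The main test was limma 3.58.1 with a mean-variance trend in R 4.3.3, on log2(CPM + 1). Genes entered when any embryo of the groups compared was over 0.5 CPM. The alternatives were edgeR 4.0.16 (quasi-likelihood) and DESeq2 1.42.0 on recovered reads, another pseudocount (0.1), no filter, rescaled values, 1 fit of all 6 groups, left-out embryos and a block on replicate codes. Folds on this scale understate changes of low genes. The fits were also run on simulated counts for some of the comparisons, with the same spread setting for every gene. The simulation did not model poor RNA quality, so no support for the results is drawn from it. Sex labels were not used. The reads ranged from 1.44 to 7.71 M per embryo, so 1 read was worth 0.133 to 0.870 CPM.

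The 10 genes and the lists were chosen with earlier results of these data known. Named besides them are, per list and comparison, the DEG with the largest log2 fold change in each direction, and the 3 genes most like FABP3, FABP5 and PLIN2. Of the latter, 1 is not reported here. Coordinates are of Sscrofa11.1 by RefSeq. Confidence intervals and floors of 3 reads cover counting error or embryo spread only.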

Additional observations from a re-analysis of the deposited data

Results flagged for a closer look

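The step of FABP5 from morula to hatched blastocyst differed between the sources by the interaction test, at -3.23 on the log2 scale, as given above. This result includes the morulae of both sources, to which the limit of RNA quality given above applies.

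Embryos far from the others of their group were found in 15 of 58 groups of values, where chance gives about 1 in 20 groups of normally distributed values. That rate was not tested for groups mostly at 0, and an embryo that alone has reads is always found. In vivo morula A3 was apart in FABP5 (161 CPM), PNPLA2 (2.62 CPM), DGAT2 (1.22 CPM) and SCD (87.1 CPM). In vitro morula B2 was apart in FABP5 (684 CPM). CPT1A was far above the group in in vivo 4-cell embryo C1 (129 CPM), in vivo morula G1 (195 CPM) and in vivo hatched blastocyst D3 (45.1 CPM). In vivo 4-cell embryo D1 was the only one of its group with FABP5 (1.90 CPM) or FASN (1.33 CPM). PLIN2 was apart in in vitro 4-cell embryo A1 (153 CPM) and in vitro hatched blastocyst C3 (1639 CPM), PLIN3 in in vitro hatched blastocyst F4 (14.8 CPM), DGAT1 in in vitro 4-cell embryo B1 (8.57 CPM) and DGAT2 in in vitro hatched blastocyst G4 (0.513 CPM).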

How the results depend on the processing

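The number of the 10 genes that were DEGs kept within 1.5 times its value in 155 of 162 refits, and the other 7 were these. For the morulae between sources it was 2 instead of 1 with rescaled values (with CPT1A), with 1 fit of all 6 groups and with DESeq2 (with FABP3), 3 without in vivo morulae A3 and G1, a choice made after seeing the data, and 0 with a replicate block. For the 4-cell embryos it was 1 instead of 0 with 1 fit of all 6 groups (DGAT1), and for the interaction at the first step 1 instead of 0 with DESeq2 (CPT1A). Of the refitted log2 fold changes of the 10 genes, 1557 kept sign and side of the threshold, 18 passed newly, 9 no longer passed and 32 changed sign, none of these a DEG.

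Signs changed as follows, on the log2 scale. With edgeR, DGAT1 at the first step in vitro was 0.10, PLIN2 between 4-cell embryos -0.74, and at the interaction of the first step DGAT2 -1.03 and FABP5 -0.43. With DESeq2 the last 3 were -0.73, -0.18 and -0.31, and PLIN2 at that interaction was 0.080. With a pseudocount of 0.1, PNPLA2 at the second step in vitro was -0.044, CPT1A between 4-cell embryos 0.0032 and FABP5 at the first interaction -1.71. With rescaled values PNPLA2 at the second step in vitro was -0.12 and DGAT1 between morulae 0.26. Without in vivo morulae A3 and G1, DGAT1 and PLIN3 between morulae were 0.12 and -0.082. Leaving out embryos 1 at a time, at the first interaction the 4-cell embryos and in vitro morula B2 only, gave ranges of -0.078 to 0.078 for PNPLA2 at the second step in vitro, -0.0068 to 0.053 for DGAT2 and -0.0062 to 0.10 for SCD between hatched blastocysts, -1.01 to 0.80 for PLIN2 and -0.84 to 0.91 for CPT1A between 4-cell embryos, and -1.20 to 0.62 for PLIN2 and -0.17 to 0.14 for FASN at the first interaction. In each case the cause was not tested.

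The replicate codes were not taken to pair embryos. Of 6, 8 and 5 codes shared by the hatched blastocysts, morulae and 4-cell embryos of the sources, 0, 2 and 0 gave a correlation of deviations over 0.1. The highest was 0.262, among the morulae. For 1, 2 and 2 of these codes the embryo was most like that of its own code. No reference value was computed, so these few correlations cannot settle whether the codes pair embryos. With a replicate block on the codes, FABP5 between morulae was 2.45 (adjusted p = 0.00626, limma) and PLIN3 -0.14. The block left 0 of 769 DEGs among all genes in the hatched blastocysts and 3 of 509 in the morulae.

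DEGs over all genes, against the main test, were 3428 and 271 against 0 for 4-cell embryos (1 fit of all groups, DESeq2), 282 against 769 for hatched blastocysts (1 fit), 981 and 1354 against 509 for morulae (1 fit, DESeq2), 7916 and 2920 against 4521 for the first step in vivo (1 fit, edgeR), 2362, 1177, 384 and 1334 against 717 for the first interaction (1 fit, DESeq2, edgeR, without in vivo 4-cell embryo D1) and 490 against 963 for the second (1 fit). Without in vivo morulae A3 and G1 there were 1101 for the morulae and 1445 for the second interaction. With rescaled values the share of DEGs that were higher was 30.2% instead of 49.5% for the second step in vitro and 81.4% instead of 60.5% for the morulae.

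Depth limits DGAT2, at 11 reads at most, and the lower groups of PNPLA2, FASN and PLIN3.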
